A study of Mus musculus with 162 samples.

Results

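The enzymes that build triglyceride from glycerol 3-phosphate or monoacylglycerol were described in 9 mouse organs over a fast. The 9 genes were taken by symbol from the table of counts, and 9 of its 53686 genes carried these symbols: Gpam, Agpat2, Agpat3, Lpin1, Lpin2, Lpin3, Dgat1, Dgat2 and Mogat1.

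In the glycerol phosphate route, GPAM in the mitochondrial outer membrane puts the first acyl chain on glycerol 3-phosphate, and AGPAT enzymes add the next one to give phosphatidate. The lipins remove the phosphate to give diacylglycerol, and DGAT1 and DGAT2 add the last acyl chain, while MOGAT1 makes diacylglycerol from monoacylglycerol. Liver uses the product for lipoproteins and for short-term storage, and adipocytes store it in lipid droplets.

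The data are mRNA levels in organs of adult male C57BL/6J mice that were fed ad libitum (0 h) or had no food for 2, 8, 12, 18 or 22 h, with water throughout. How organs respond to short-term fasting was the question of the study. There were 3 mice per time, 18 in all, and each mouse gave all 9 organs: olfactory bulb (OB), brain (BRN), cerebellum (CBL), brainstem (BST), stomach (STM), liver (LIV), interscapular brown fat (iBAT), perigonadal white fat (pgWAT) and posterior-subcutaneous white fat (psWAT). All mice were killed at the same clock time, so food was removed at different clock times, and the length of the fast and the clock time of its start cannot be told apart. Left out were 5 libraries named as failing quality criteria, STM 12 h replicate 3, BRN 8 h replicate 3, BRN 18 h replicate 1, iBAT 22 h replicate 1 and psWAT 22 h replicate 2.

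Totals of the libraries used ran from 3045845 to 27801717 counts, with a median of 8735554. By organ they were 8224940 to 17704828 (OB), 6998492 to 11776354 (BST), 6487419 to 22071004 (CBL) and 3045845 to 12108290 (BRN). They were 6851903 to 13769280 in STM, 6959200 to 12451777 in LIV, 3156101 to 27801717 in iBAT, 5784709 to 19829510 in pgWAT and 4099281 to 9802381 in psWAT. In CBL the fed libraries held 20396385 to 22071004 counts and all fasted ones 6487419 to 9487976, so depth and the fed state go together there. Levels are CPM after scaling within an organ (normalized CPM), and 3 counts were worth 0.107 to 1.10 normalized CPM, which covers counting error only. Each organ was tested with edgeR's quasi-likelihood F test, once for any difference among the 6 times and once for the late fast, which is the mean of the 18 h and 22 h groups minus 0 h. A gene passed at a Benjamini-Hochberg adjusted p under 0.05 over all genes kept in the organ.

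Markers of each organ's main cell type were present where the label puts them. Summed hepatocyte markers (5 genes, Alb highest) reached 74378 to 96680 normalized CPM in LIV and 0.286 to 3.77 in iBAT. They reached up to 5164 in CBL, 3534 in BST and 1301 in BRN, with Ttr highest, and up to 2661 in STM, with Apoa1 highest. Summed brown adipocyte markers (5 genes, Ucp1 highest) reached 4567 to 15327 in iBAT. Stomach epithelium markers (6 genes, Pgc highest) reached 82139 to 281415 in STM, and neuron markers (4 genes, Snap25 highest) 2164 to 5488 over the 4 brain regions. Oligodendrocyte markers (3 genes, Mbp highest) reached 17845 to 21177 in BST and ran widely in BRN, from 4746 to 19879. Cerebellum markers (3 genes) reached 2025 to 2351 in CBL against at most 197 in OB, BRN and BST. Macrophage markers (3 genes, Csf1r highest) ran from 63.6 to 357 in pgWAT and from 71.2 to 304 in psWAT. Adipocyte markers (6 genes, Fabp4 highest in fat) ran from 5534 to 76003 in pgWAT, but from 651 to 42825 in psWAT, so several psWAT libraries held few of them.

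Some libraries stood apart. In iBAT the 22 h libraries of replicates 2 and 3 had slopes of level on gene length of -0.43 and -0.29, against -0.13 to 0.16 in the other 15, mitochondrial shares of 5.47% and 11.8% against 12.9% to 36.2%, and adipocyte marker sums of 30086 and 24883 against 11126 to 17861. In pgWAT, epididymis markers (4 genes, Crisp1 highest) summed to 19522 normalized CPM in 22 h replicate 2, where adipocyte markers summed to 5534, to 9486 in 18 h replicate 3, to 2623 in 2 h replicate 2 and to 591 in 22 h replicate 3, and to at most 31.3 in the other 14. In psWAT, leukocyte markers (5 genes, Ptprc highest) summed to 217 to 3364 and skeletal muscle markers (5 genes, Acta1 highest) to 13.8 to 28693, and 12 h replicate 3 held 3845 of neuron, 2792 of oligodendrocyte and 1687 of cerebellum markers, whose psWAT medians were 21.9, 130.3 and 0.37. In pgWAT 18 h replicate 2 held 4130 of hepatocyte markers, against at most 293 in the other 17. The fed LIV replicates 1 and 2 were the closest LIV pair, with a chi-square per degree of freedom of 2.13 against 9.64 to 90.0 for the other LIV pairs, while the closest pairs of BST and CBL were at 1.84 and 2.17. Whether both come from 1 mouse or 1 library was not tested. They were kept as 2 samples, and the LIV results are also given with 1 of them left out. Numbers in the library names, read here as sequencing lanes, put all 0 h and 2 h libraries of LIV, STM and OB on 1 lane and all 12 h, 18 h and 22 h libraries on another, so the lane and the late fast can be separated there only through the 8 h libraries, which lie on both. In pgWAT all 0 h libraries lie on 1 lane and all 18 h and 22 h ones on another, and the 12 h group alone lies on both. Among the iBAT libraries used, each 22 h one lies on a lane with no other, so the lane and the 22 h fast cannot be told apart there.

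Gpam (ENSMUSG00000024978, chromosome 19, 55067268 to 55127238, minus strand, GRCm38), the enzyme of the first acylation, was highest in iBAT at 229 ± 99.8 normalized CPM (SD, n = 17 libraries over all times). It followed at 135.7 ± 108 in pgWAT (n = 18), 66.96 ± 8.87 in BST, 52.6 ± 12.4 in OB, 51.2 ± 3.91 in CBL, 35.9 ± 32.9 in psWAT, 24.8 ± 8.03 in STM, 21.3 ± 10.4 in LIV and 19.9 ± 9.83 in BRN. Of these neighbours, BST and OB alone differed by more than the larger SD of the pair. Agpat2 (ENSMUSG00000026922, chromosome 2, 26593057 to 26604417, minus strand), which makes phosphatidate, ran in the order iBAT 1213 ± 385, pgWAT 687 ± 314, psWAT 375 ± 465, LIV 230 ± 38.03 and STM 76.3 ± 26.6. Its level in the 4 brain regions was 1.25 to 2.02, and the steps beyond the spread were iBAT to pgWAT, LIV to STM and STM to BRN. Agpat3 (ENSMUSG00000001211, chromosome 10, 78269178 to 78352489, minus strand), another enzyme of that step, was present in every organ, from 405 ± 43.2 in iBAT through 351 ± 16.7 in BST, 315 ± 14.2 in OB, 311 ± 13.95 in CBL, 231.6 ± 23.4 in BRN, 200 ± 34.6 in pgWAT, 165.9 ± 14 in LIV and 150.5 ± 49.3 in psWAT to 83.3 ± 12.4 in STM. For Agpat3, OB and CBL, BRN and pgWAT, pgWAT and LIV, and LIV and psWAT did not differ beyond their spread.

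The lipins, the phosphatidate phosphatases, were highest in different organs. Lpin1 (ENSMUSG00000020593, chromosome 12, 16535669 to 16610966, minus strand) was at 380 ± 131.004 normalized CPM in iBAT, 338 ± 140 in pgWAT, 261 ± 167.5 in LIV, 143.999 ± 115.3 in psWAT, 78.6 ± 7.96 in BST, 39.5 ± 3.54 in CBL, 32.0 ± 3.34 in OB, 24.8 ± 4.18 in BRN and 15.5 ± 5.73 in STM. Its first 4 steps, from iBAT to BST, were within the spread, and the later ones were beyond it. Lpin2 (ENSMUSG00000024052, chromosome 17, 71182560 to 71249817, plus strand) was highest in LIV at 376 ± 105.2, followed by OB 130 ± 12.95, BST 82.02 ± 5.31, CBL 74.9 ± 3.73, BRN 70.2 ± 13.1, psWAT 38.3 ± 12.9, STM 27.2 ± 7.67, pgWAT 16.9 ± 5.98 and iBAT 11.6 ± 3.55. For Lpin2, CBL and BRN, psWAT and STM, and pgWAT and iBAT did not differ beyond their spread. Lpin3 (ENSMUSG00000027412, chromosome 2, 160880670 to 160906002, plus strand) was the lowest lipin per kb of exon in OB, BRN, CBL, BST, LIV and psWAT, at 22.1 ± 4.07 normalized CPM in STM, 12.7 ± 5.12 in pgWAT, 7.39 ± 2.55 in iBAT, 6.01 ± 3.30 in psWAT, 5.61 ± 1.32 in LIV and 0.916 to 2.86 in the brain regions. The Lpin3 steps from iBAT to psWAT, psWAT to LIV, BST to BRN and BRN to OB were within the spread. On a scale per kb of exon, Lpin1 was at 39.3 and Lpin2 at 0.945 normalized CPM in iBAT, while in LIV Lpin2 was at 30.7 and Lpin1 at 27.03, and in STM Lpin3 was at 5.98, Lpin2 at 2.22 and Lpin1 at 1.60.

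Both enzymes of the last acylation were highest in fat. Dgat2 (ENSMUSG00000030747, chromosome 7, 99153658 to 99182719, minus strand) was at 3156 ± 635 normalized CPM in iBAT, 2092 ± 911 in pgWAT, 644 ± 742 in psWAT, 473 ± 78.9 in LIV, 132.4 ± 35.2 in STM, 82.7 ± 9.40 in BRN, 55.8 ± 6.87 in OB, 27.04 ± 3.72 in BST and 22.4 ± 2.81 in CBL, and of these neighbours psWAT and LIV alone were within the spread. Dgat1 (ENSMUSG00000022555, chromosome 15, 76502015 to 76511953, minus strand) was at 363 ± 105.3 in pgWAT, 300 ± 83.9 in iBAT, 219 ± 175 in psWAT, 69.1 ± 25.2 in STM, 45.7 ± 7.25 in LIV, 33.98 ± 7.57 in BRN, then CBL 25.2 ± 3.35, OB 23.6 ± 3.23 and BST 20.1 ± 2.30, and the steps beyond the spread were LIV to BRN, BRN to CBL and OB to BST. Per kb of exon, Dgat2 was above Dgat1 in LIV (153.3 against 14.96 normalized CPM) and in iBAT (1024 against 98.1), and the 2 were close in CBL (7.28 against 8.25). Mogat1 (ENSMUSG00000012187, chromosome 1, 78510991 to 78538173, plus strand), of the monoacylglycerol route, was at 87.1 ± 39.6 in STM, 60.8 ± 18.5 in pgWAT, 12.6 ± 13.9 in psWAT, 12.5 ± 5.10 in iBAT and 1.09 ± 0.384 in BST, where pgWAT to psWAT and iBAT to BST were steps beyond the spread. Mogat1 did not reach the minimum level for testing in LIV (mean 0.616), BRN (0.262), CBL (0.261) and OB (0.113), and the other 8 genes did in all 9 organs. Of the exon bases of Mogat1, 200 (12.8%) overlap BC035947 on the opposite strand, 64 of Agpat2 (3.0%) overlap Egfl7 and 16 of Agpat3 (0.2%) overlap Gm40709. The kit kept strand, but the strand setting of the counting is not given in the sources used here, so reads of these partners cannot be told apart. Levels in LIV were higher when all organs were scaled together, and the order of some organs turned. LIV then lay above STM (29.1) and psWAT (27.2) for Gpam (34.1), above psWAT for Agpat2 (368 against 282), Lpin3 (8.98 against 4.58) and Dgat2 (756 against 483), and above pgWAT for Lpin1 (417 against 312). For Agpat3, LIV (265.2) lay above CBL (251), BRN (204) and pgWAT (185) and level with OB (264.99), although CBL, OB and BRN had been above LIV by more than the larger SD. Gpam and Lpin2 in STM also passed psWAT (27.2 and 29.6), Lpin2 in iBAT passed pgWAT (16.1 against 15.6), Lpin2 in BRN passed CBL (62.1 against 60.3), Dgat1 in iBAT passed pgWAT (416 against 336), and Mogat1 passed psWAT in iBAT (17.3 against 9.42) and BST in LIV (0.989 against 0.985).

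**Figure D1:**
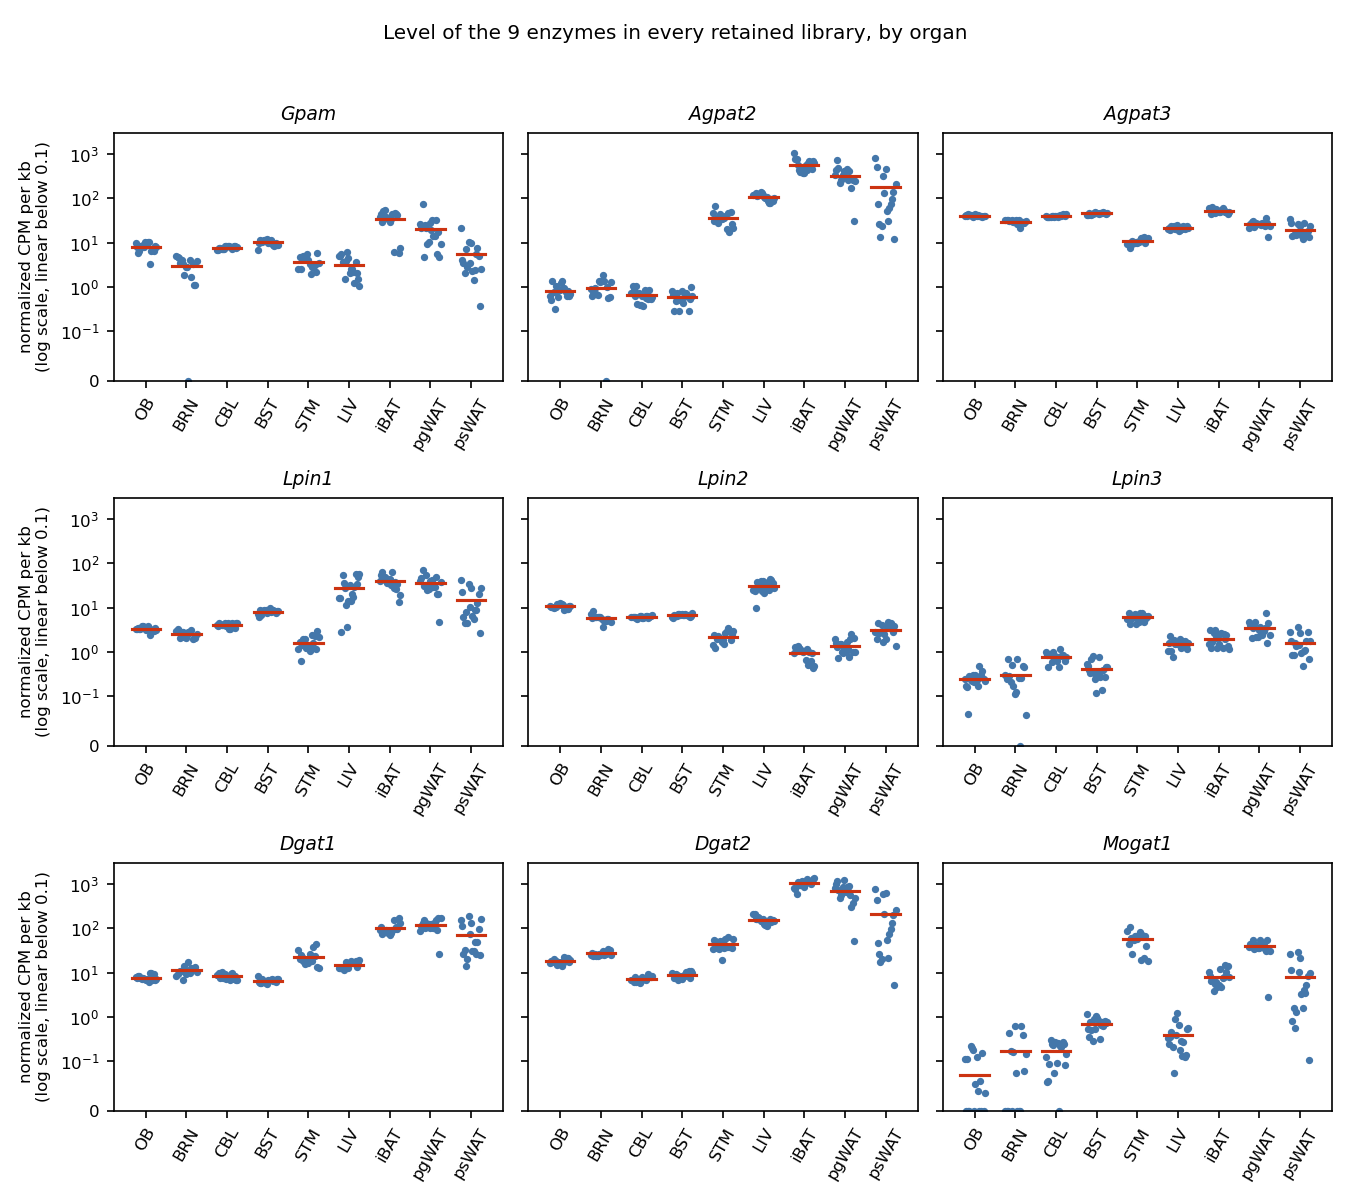
Normalized CPM per kb of exon (log axis, linear at its low end) of the 9 genes in 9 organs, with a point for each library and a bar at the mean. Before division by exon length, Dgat2 has a mean of 3156 normalized CPM in iBAT and 22.4 in CBL. Lpin2 has a mean of 376 in LIV and 11.6 in iBAT.

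Late in the fast Gpam, Agpat2 and Dgat2 fell in LIV and Dgat1 rose. Gpam was at 32.7, 32.8 and 36.8 normalized CPM at 0 h, 23.98, 23.8 and 10.1 at 2 h, 26.1, 41.3 and 29.8 at 8 h, 13.4, 17.3 and 16.8 at 12 h, 14.7, 8.21 and 24.2 at 18 h and 13.7, 10.2 and 7.07 at 22 h. All 6 late libraries lay below all 3 fed ones, as did the 2 h and 12 h ones, while the 8 h group overlapped the fed group. Agpat2 was at 248, 251 and 282 at 0 h, 236, 265 and 248 at 2 h, 291, 274 and 251 at 8 h, 226, 217 and 222 at 12 h, 186, 165.5 and 166.8 at 18 h and 202, 184 and 217 at 22 h. Its values from 12 h on were below every fed value, and those at 2 h and 8 h overlapped them. The late log2 fold change was -1.41 (SE 0.30, edgeR adjusted p = 0.0099) for Gpam and -0.48 (SE 0.09, 0.0026) for Agpat2, and both passed the joint test of the 6 times (0.023 and 0.0034).

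The enzymes of the last step moved in opposite directions in LIV. Dgat2 was at 639, 629 and 489 normalized CPM at 0 h, 493, 539 and 517 at 2 h, 453, 454 and 505 at 8 h, 390, 370 and 339 at 12 h, 404, 448 and 504 at 18 h and 422, 464 and 447 at 22 h. Of the 6 late libraries, 5 lay below every fed one, and the lowest values were at 12 h. Dgat1 was at 37.9, 38.2 and 38.8 at 0 h, 39.9, 35.4 and 38.8 at 2 h, 53.6, 45.9 and 39.1 at 8 h, 50.3, 55.8 and 49.99 at 12 h, 50.8, 49.7 and 54.6 at 18 h and 39.7, 47.2 and 57.2 at 22 h. Every Dgat1 value from 8 h on was above the 3 fed values. The late log2 fold change was -0.39 (SE 0.10, edgeR adjusted p = 0.022) for Dgat2 and 0.38 (SE 0.12, 0.041) for Dgat1, with joint adjusted p of 0.013 and 0.039.

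In edgeR as run, Lpin1, Lpin2, Agpat3 and Lpin3 did not pass in LIV. Lpin1 varied most, with 156.4, 155.3 and 27.3 normalized CPM at 0 h, 510, 338 and 267 at 2 h, 108.6, 34.7 and 135.5 at 8 h, 312, 135.6 and 197 at 12 h, 163, 276 and 549 at 18 h and 319, 478 and 538 at 22 h. Its 6 late values were above the fed ones, and so were the 2 h values, while the 8 h group was not. Lpin2 was at 297, 291 and 120 at 0 h, at 450, 298 and 526 at 18 h and at 513, 445 and 343 at 22 h, which leaves the late values above the fed ones by as little as the gap from 297 to 298. The late log2 fold change of Lpin1 was 1.76 (SE 0.62, edgeR adjusted p = 0.092) and that of Lpin2 0.86 (SE 0.29, 0.077), and both passed in DESeq2 (1.75, 0.022 and 0.85, 0.0099) and without a filter on low counts, where the same changes came with an SE of 0.15 and 0.14 although the fed Lpin1 values span 27.3 to 156.4. Agpat3 stayed between 141.99 and 188.7 and Lpin3 between 2.92 and 8.31 over all LIV libraries.

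Thus 4 of the 8 genes tested in LIV passed the late test, 3 lower and 1 higher, against 10.6% of all 14023 genes, and 4 passed the joint test against 15.98%. Their median late log2 fold change was 0.00, against 0.01 over all genes. With lane as a covariate none of the 4 passed (Gpam -1.23, adjusted p = 0.37; Agpat2 -0.31, 0.44; Dgat2 -0.54, 0.22; Dgat1 0.73, 0.13), and 21 genes in all did. Without a filter Dgat2 (-0.39, 0.051) and Dgat1 (0.38, 0.067) did not pass. With the replicate number as a block (replicate block) Dgat1 passed neither the late test (0.38, 0.061) nor the joint one (0.066), and Gpam did not pass the joint one (0.051). Over the alternatives the adjusted p ran from 4.4e-18 to 0.37 for Gpam, 4.1e-06 to 0.44 for Agpat2, 0.0043 to 0.22 for Dgat2 and 0.0093 to 0.13 for Dgat1. Without fed replicate 1, the late log2 fold change was -1.44 for Gpam (adjusted p = 0.035), -0.52 for Agpat2 (0.01), -0.32 for Dgat2 (0.13) and 0.37 for Dgat1 (0.12), with 682 genes passing in place of 1484. Without fed replicate 2 these were -1.44 (0.038), -0.51 (0.014), -0.33 (0.12) and 0.38 (0.13), with 585 genes passing, and the joint adjusted p of Gpam was 0.05, no longer under the threshold before rounding. The call of Dgat1 was also lost without 0 h replicate 3 (0.39, adjusted p = 0.091), 8 h replicate 2 (0.37, 0.053), 12 h replicate 2 (0.37, 0.05), 12 h replicate 3 (0.37, 0.053), 18 h replicate 3 (0.35, 0.07), 22 h replicate 2 (0.39, 0.065) or 22 h replicate 3 (0.31, 0.087). In the joint test Gpam was lost without 22 h replicate 2 (0.054), and Dgat1 without 0 h replicates 1, 2 or 3 (0.082, 0.08 and 0.051), 2 h replicates 2 or 3 (0.093 and 0.072), 8 h replicate 2 (0.059), 12 h replicates 2 or 3 (0.083 and 0.062), 18 h replicate 3 (0.063) or 22 h replicate 2 (0.059).

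**Figure D2:**
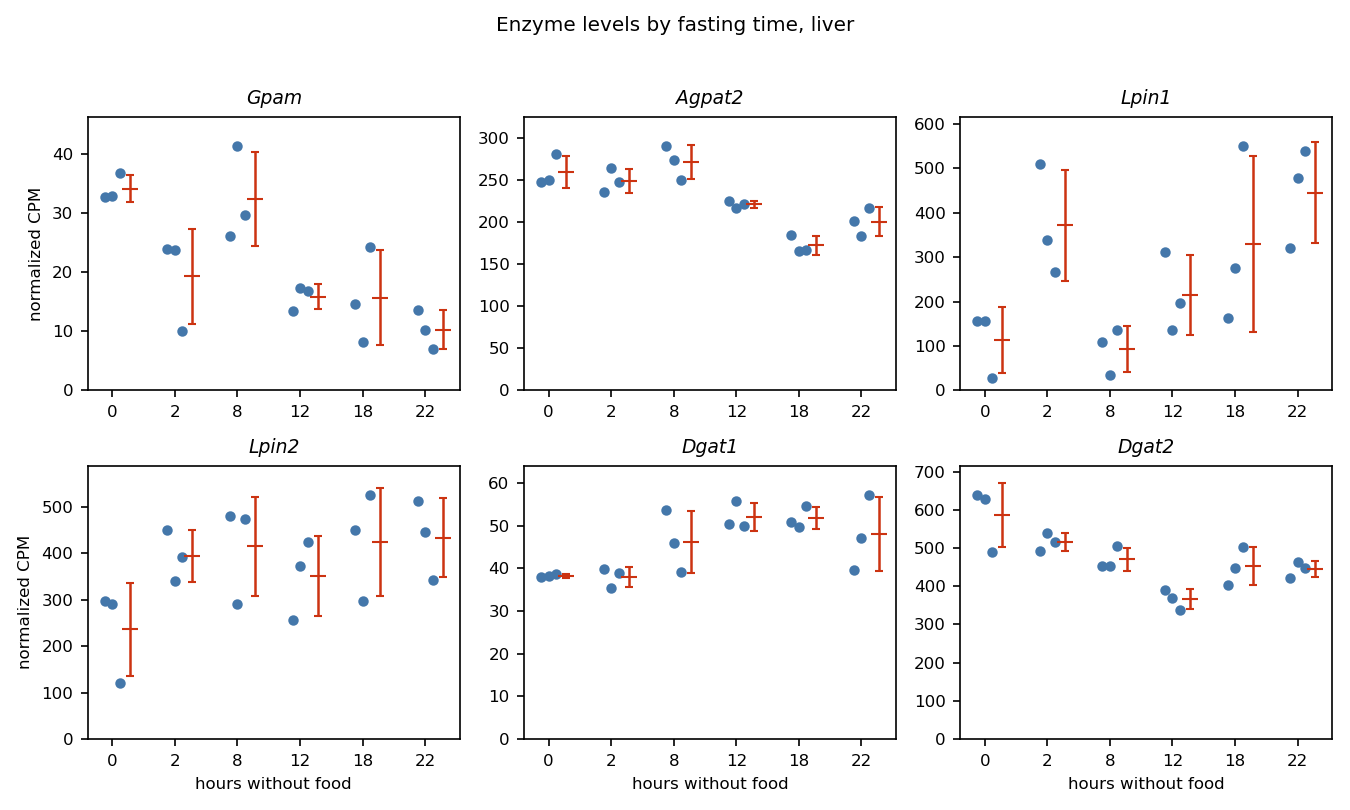
Normalized CPM of Gpam, Agpat2, Lpin1, Lpin2, Dgat1 and Dgat2 in LIV at each hour of fasting. Each of 3 libraries per time has a point, and a mark beside the points shows the mean with an SD bar. Gpam lies between 32.7 and 36.8 at 0 h and between 7.07 and 24.2 at 18 h and 22 h.

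Of 22 genes on a route list of acyl-CoA synthetases, glycerol 3-phosphate enzymes and further acyltransferases, 19 were tested in LIV, and 4 passed the late test, all lower, against 10.6% of all genes. Acsl5, which activates fatty acids, was at 272 ± 4.41 normalized CPM at 0 h (SD, n = 3) and 161.3 ± 13.3 in the late fast (n = 6), a log2 fold change of -0.76 (SE 0.10, edgeR adjusted p = 0.00022). Its late values of 145.4 to 180 were below the fed values of 267 to 275. Acsl3 changed by -0.79 (SE 0.14, edgeR adjusted p = 0.0015), Gpd1, which makes glycerol 3-phosphate, by -0.70 (SE 0.14, 0.0033; 377 ± 97.2 to 234.6 ± 41.9 normalized CPM), and Acsl4 by -0.56 (SE 0.14, 0.018). In the joint test 6 of the 19 passed, against 16% of all genes, and the list's median late log2 fold change was 0.02. With lane as a covariate none of the 19 passed the late test, and 2, Acsl3 and Gpd1, the joint test. Without fed replicate 1 the late test lost Acsl4, and without either of fed replicates 1 and 2, or with the replicate block, the joint test lost Acsl4 and Agpat1. Of 8 transcription regulators on a further list, none passed the late test in edgeR (3 at an unadjusted p under 0.05, and 1 in DESeq2). The joint test was passed by Mlxipl (ChREBP, adjusted p = 0.036) and Ppargc1a (0.032), a coactivator at 4.92 ± 1.16 normalized CPM at 0 h and 9.51 ± 4.95 late, and by no regulator with lane as a covariate or without fed replicate 1. Mlxipl was also lost without fed replicate 2 and with the replicate block.

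In iBAT, Dgat2 rose while Lpin1 and Lpin2 fell. Dgat2 was at 2409, 2332 and 1813 normalized CPM at 0 h, 3430, 2808 and 2857 at 2 h, 3479, 3047 and 2654 at 8 h, 3166, 3929 and 3385 at 12 h, 3604, 3050 and 3509 at 18 h and 4013 and 4169 at 22 h. All 14 fasted libraries, from 2 h on, were above the 3 fed ones. Lpin1 was at 384, 510 and 606 at 0 h, 461, 481 and 380 at 2 h, 346, 425 and 425 at 8 h, 304, 597 and 270 at 12 h, 372, 256 and 333 at 18 h and 127 and 186 at 22 h. All 5 late Lpin1 values were below the fed ones, by the largest margin at 22 h. Lpin2 was at 11.8, 15.5 and 14.8 at 0 h, 16.2, 14.8 and 14.2 at 2 h, 12.9, 12.5 and 12.6 at 8 h, 7.86, 14.1 and 6.09 at 12 h, 12.2, 7.82 and 11.7 at 18 h and 5.42 and 6.01 at 22 h. Of the 5 late Lpin2 values, 4 were below the fed ones. The late log2 fold change was 0.77 (SE 0.16, edgeR adjusted p = 0.005) for Dgat2, -1.16 (SE 0.24, 0.0051) for Lpin1 and -0.84 (SE 0.24, 0.023) for Lpin2.

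Gpam and Agpat2 passed the joint test in iBAT but not the late one. Gpam was at 252, 300 and 197 normalized CPM at 0 h, 345, 361 and 245 at 2 h, 242, 225 and 194 at 8 h, 226, 289 and 40.6 at 12 h, 312, 293 and 277 at 18 h and 38.2 and 51.02 at 22 h. The 22 h pair and 12 h replicate 3 were low, and the other 11 fasted libraries overlapped the fed ones. Agpat2 was at 2235, 1580 and 1641 at 0 h, 1198, 915 and 815 at 2 h, 944, 799 and 803 at 8 h, 1196, 908 and 1342 at 12 h, 1444, 1072 and 939 at 18 h and 1496 and 1298 at 22 h. All 14 fasted values of Agpat2 were below the 3 fed ones. Joint adjusted p was 0.019 for Gpam, 0.0089 for Agpat2, 0.012 for Lpin1, 0.029 for Lpin2 and 0.018 for Dgat2, and the late log2 fold change was -1.12 (SE 0.39, edgeR adjusted p = 0.053) for Gpam and -0.52 (SE 0.19, 0.058) for Agpat2. At 22 h alone against 0 h, Gpam (-2.48, adjusted p = 0.0029), Lpin1 (-1.67, 0.001), Lpin2 (-1.28, 0.0056), Dgat1 (0.73, 0.027) and Dgat2 (0.91, 0.0016) passed, against 41.02% of all genes.

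Dgat1 was at 273, 322 and 224 normalized CPM in iBAT at 0 h, at 289, 322 and 289 at 18 h and at 509 and 397 at 22 h, and Mogat1 at 15.97, 12.8 and 9.86 at 0 h, 12.2, 22.6 and 16.3 at 18 h and 22.3 and 12.4 at 22 h. The 22 h values of Dgat1 were above the fed ones, and those of Mogat1 overlapped them. Neither passed the late test (Dgat1 0.43, edgeR adjusted p = 0.14; Mogat1 0.40, 0.35), nor did Agpat3 (-0.15) and Lpin3 (-0.18). In all, 3 of 9 genes passed the late test, 1 higher and 2 lower, against 20.9% of all 14529 genes, and 5 passed the joint test against 28.98%, with a median late log2 fold change of -0.18 against -0.07 over all genes.

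The late calls in iBAT were lost without the 22 h pair, whose lanes hold no other iBAT library in use. With 18 h alone as the late fast, Dgat2 was at 0.62 (SE 0.17, edgeR adjusted p = 0.15), with its 18 h values above every fed one, Lpin1 at -0.65 (SE 0.27, 0.38), Lpin2 at -0.42 (SE 0.26, 0.62) and Gpam at 0.22 (0.91), the joint adjusted p ran from 0.11 for Agpat2 to 0.73 for Gpam, and 55 genes passed the late test and 65 the joint test. With lane as a covariate as well, Dgat2 was at 0.70 (SE 0.21, 0.41), Lpin1 at -0.51 (SE 0.28, 0.83) and Lpin2 at -0.25 (SE 0.27, 0.95), and 3 genes passed the late test and 27 the joint test. As 18 h replicate 2 lies on a lane of its own, the 18 h values of that fit rest on replicates 1 and 3. Over all alternatives the late adjusted p ran from 0.00016 to 0.83 for Lpin1, 0.0046 to 0.95 for Lpin2 and 7.5e-06 to 0.41 for Dgat2. With each library's trend of level on gene length removed, Lpin2 was at -0.28 (0.33), Lpin1 at -0.70 (0.017), Dgat2 at 0.69 (0.0099) and Agpat2 at -0.73 (0.01), and the joint test lost Gpam (0.054), Lpin1 (0.076) and Lpin2 (0.52). With 0 h and 2 h together as fed, Gpam (-1.29, 0.0097), Dgat1 (0.46, 0.039) and Mogat1 (0.73, 0.031) passed too, and DESeq2 added Gpam (-1.11, 0.018) and Agpat2 (-0.50, 0.044). Agpat2 also passed with the library left out at 22 h put back (-0.59, 0.035), and Gpam did not pass the joint test without a filter (0.092). Leaving out single libraries ended the late call of Lpin2 without 0 h replicate 2 (-0.78, 0.11), 0 h replicate 3 (-0.80, 0.055) or 22 h replicate 2 (-0.82, 0.062). In the joint test it ended those of Gpam without 22 h replicate 2 (0.19) or 3 (0.09), Lpin1 without 22 h replicate 2 (0.14), Dgat2 without 0 h replicate 3 (0.065) or 22 h replicate 2 (0.076), and Lpin2 without 2 h replicates 1, 2 or 3 (0.058, 0.055 and 0.051) or 22 h replicates 2 or 3 (0.13 and 0.078). The low Gpam value of 40.6 in 12 h replicate 3 came with skeletal muscle markers at 9355 normalized CPM, against 33.01 to 3381 in the other iBAT libraries. The length slopes were addressed only by the fit with the length trend removed. The part of the mitochondrial shares and the marker sums in these results was not tested. In bulk tissue, fewer cells of a type and less RNA per cell cannot be told apart.

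**Figure D3:**
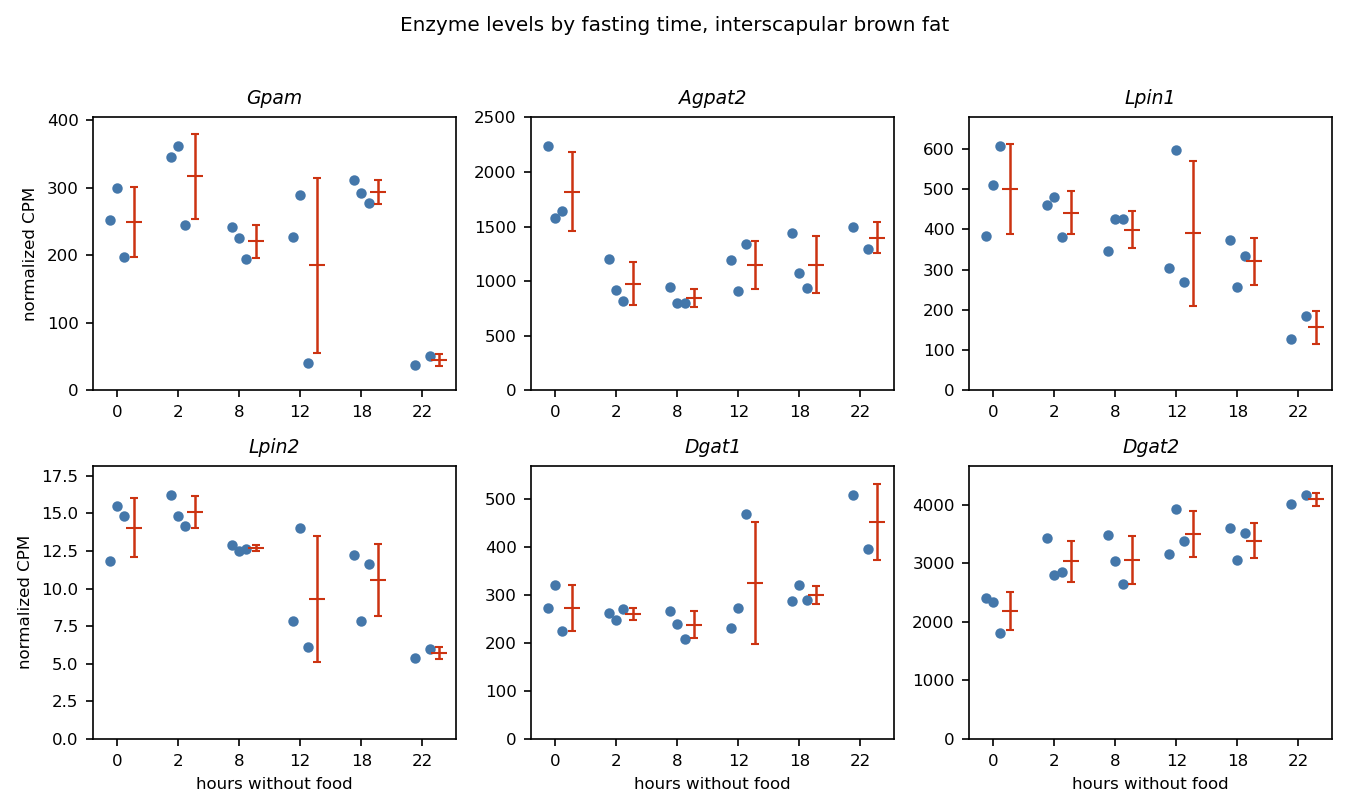
Normalized CPM of Gpam, Agpat2, Lpin1, Lpin2, Dgat1 and Dgat2 in iBAT at each hour of fasting. Each library (3 per time, 2 at 22 h) has a point, and a mark beside the points shows the mean with an SD bar. Dgat2 lies between 1813 and 2409 at 0 h and between 2654 and 4169 in the fasted libraries.

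In iBAT the route list had 5 of 19 genes past the late test, 1 higher and 4 lower, near the 20.9% of all genes. Gpat4, which makes the same first acylation at the endoplasmic reticulum, was at 305 ± 43.03 normalized CPM at 0 h (n = 3) and 587 ± 67.7 late (n = 5), a log2 fold change of 0.96 (SE 0.17, edgeR adjusted p = 0.0025). Its late values of 477 to 642 were all above the fed 256 to 339. Gpd1 was at 11806 ± 4067 and 6231 ± 1249, a change of -0.99 (SE 0.20, 0.0044), Acsl5 at 492 ± 107 and 241 ± 33.3 (-1.01, SE 0.17, 0.0016), and Acsl3 at 62.6 ± 4.81 and 30.6 ± 7.74 (-1.13, SE 0.16, 0.00043). The joint test was passed by 6 (11 in DESeq2), against 28.98% of all genes, and the median late log2 fold change was 0.07. Of the 8 regulators, 3 passed the late test, 1 higher and 2 lower, against 20.9% of all genes. Mlxipl, the glucose-responsive factor ChREBP, was at 545 ± 200 and 151.3 ± 36.3 normalized CPM (-1.93, SE 0.25, 0.0003), Srebf1, which drives lipogenic genes, changed by -0.85 (SE 0.25, 0.025), and Cebpa, an adipocyte factor, by 0.71 (SE 0.21, 0.025). Ppara passed the joint test (0.027) with 45.3 ± 6.86 at 0 h and 93.6 ± 48.9 late, and 5 regulators did so in all (2 with the length trend removed). Without both 22 h libraries 1 gene of the route list, Acsl5, and 1 regulator, Mlxipl, passed each of the tests. With the length trend removed 8 genes of the route list passed the late test, 4 higher and 4 lower, and Mlxipl alone of the regulators.

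The late change of 3 genes differed between LIV and iBAT in a fit of both organs, which tests the difference itself. Dgat2 fell in LIV and rose in iBAT, with a difference (LIV minus iBAT) of -1.14 on the log2 scale (SE 0.20, edgeR adjusted p = 0.00085). The difference was 2.92 for Lpin1 (SE 0.66, 0.0066) and 1.70 for Lpin2 (SE 0.37, 0.0044), the lipins whose values were higher late in LIV and lower in iBAT. Those 3 of 9 genes stand against 13.1% of all genes, and Mogat1, which was under the minimum level in the fit of LIV by itself, is counted among the 9 in each comparison of LIV. The differences of Gpam (-0.28, 0.79), Agpat2 (0.06, 0.93) and Dgat1 (-0.03, 1.0) did not pass, and the difference of Dgat2 alone passed with the lane of the LIV libraries as a covariate (-1.27, 0.046), where Lpin1 was at 2.02 (0.3) and Lpin2 at 1.43 (0.18) and 95 genes passed in all. That fit was chosen after seeing the data, and lane was not put in for iBAT. With only 1 of the fed LIV replicates 1 and 2, all 3 still passed: without replicate 1 at -1.07 (0.0054), 3.23 (0.013) and 1.91 (0.0072), and without replicate 2 at -1.08 (0.0048), 3.22 (0.014) and 1.88 (0.0087). Without both iBAT 22 h libraries Lpin1 was at 2.37 (0.092) and Lpin2 at 1.23 (0.11). Over the 9 alternatives run for this comparison the adjusted p ran from 6.7e-09 to 0.046 for Dgat2, 3.8e-22 to 0.3 for Lpin1 and 4.4e-07 to 0.18 for Lpin2.

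Between LIV and pgWAT, 1 of 9 genes passed, against 2.06% of all genes: Lpin1, with a difference of 2.73 (SE 0.74, edgeR adjusted p = 0.05, under the threshold before rounding). That call was lost without a filter on low counts (2.78, 0.11), with the replicate number as a block (2.62, 0.067), with 0 h and 2 h as fed (1.65, 0.1), with the length trend removed (2.502, 0.07), and with the lanes of both organs as covariates (1.88, 0.76), over a range of 0.0051 to 0.76. Leaving out single libraries ended it for LIV 0 h replicates 1, 2 or 3 (3.04, 3.02 and 2.26), 18 h replicates 2 or 3 (2.80 and 2.42) and 22 h replicates 1, 2 or 3 (2.82, 2.70 and 2.64), and for pgWAT 0 h replicates 1, 2 or 3 (2.88, 2.79 and 2.47), 18 h replicate 3 (2.60) and 22 h replicate 1 (2.72), with adjusted p from 0.05 to 0.15. In edgeR none of the 9 passed between LIV and psWAT (0.00565% of all genes; 1 at an unadjusted p under 0.05, none in DESeq2), LIV and STM (0.580%; 2 and 1), iBAT and pgWAT (0.0648%; 1 and 1), iBAT and psWAT (0.168%; 1 and 0) or pgWAT and psWAT (0%; 0 and 0). Dgat2 differed by 2.004 (SE 0.54, 0.15) between iBAT and pgWAT, Lpin1 by 2.43 (SE 0.89, 0.77) between LIV and psWAT, and Gpam by -1.51 (SE 0.43, 0.088) between LIV and STM.

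**Figure D4:**
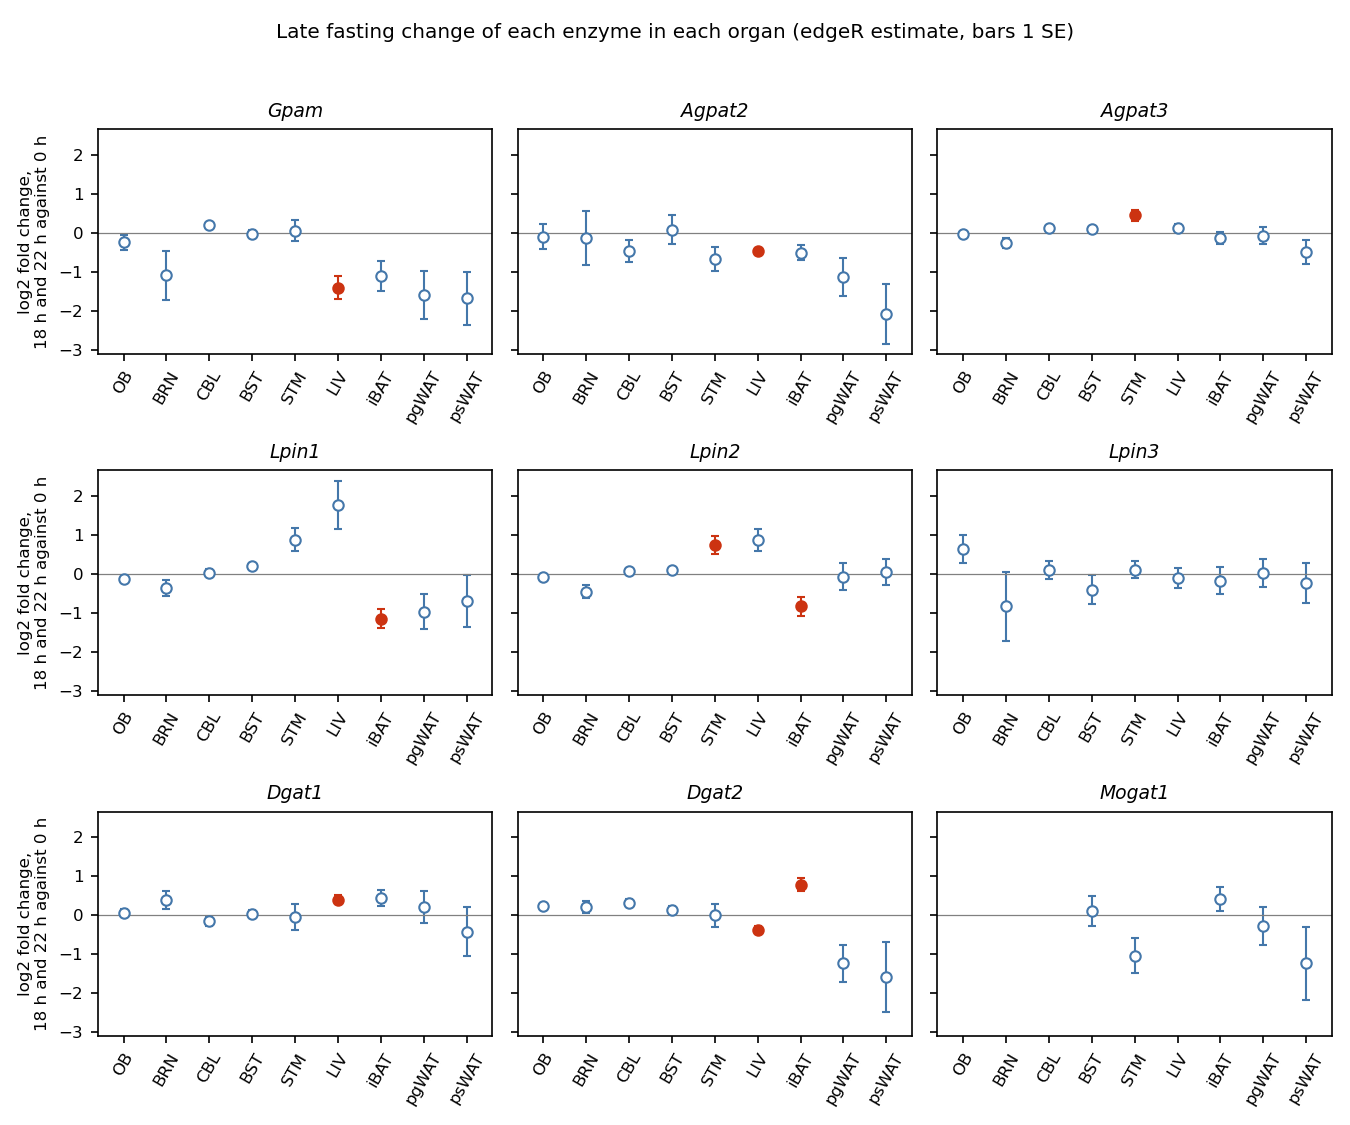
Late log2 fold change (mean of 18 h and 22 h minus 0 h) of the 9 genes in 9 organs, with bars of 1 SE. Dgat2 is at -0.39 in LIV and 0.77 in iBAT, and Lpin1 at 1.76 in LIV and -1.16 in iBAT.

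In STM, Agpat3 and Lpin2 rose late. Agpat3 was at 72.2, 77.7 and 59.3 normalized CPM at 0 h, 69.7, 85.3 and 78.3 at 2 h, 75.2, 79.8 and 77.5 at 8 h, 81.8 and 88.5 at 12 h, 100.8, 99.7 and 103.1 at 18 h and 74.8, 93.0 and 99.0 at 22 h. Lpin2 was at 17.1, 28.8 and 14.8 at 0 h, 23.3, 28.2 and 25.4 at 2 h, 25.8, 20.6 and 22.7 at 8 h, 18.7 and 31.9 at 12 h, 35.6, 41.7 and 37.8 at 18 h and 22.6, 31.6 and 35.5 at 22 h. For each gene 5 of 6 late libraries were above all fed ones, and 22 h replicate 1 was not. The late log2 fold change was 0.44 (SE 0.14, edgeR adjusted p = 0.044) for Agpat3 and 0.74 (SE 0.23, 0.038) for Lpin2. Mogat1 was at 136.2, 69.4 and 169.2 at 0 h, 29.1, 107 and 33.9 at 18 h and 103.04, 61.5 and 27.9 at 22 h, groups that overlapped (-1.05, SE 0.45, 0.12), and Lpin1 at 11.04, 15.9 and 5.90 at 0 h, 23.8, 15.6 and 21.5 at 18 h and 11.05, 28.02 and 20.6 at 22 h (0.87, SE 0.30, 0.056; DESeq2 0.88, 0.027, without a filter 0.042, with the length trend removed 0.040). The 2 of 9 genes stand against 15.3% of all 16281 genes, and none of the 9 passed the joint test (6.55% of all genes; 2 at an unadjusted p under 0.05, none in DESeq2).

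These STM calls depended on the settings. With lane as a covariate the log2 fold changes were little moved while their SE grew, to 0.44 (SE 0.30, adjusted p = 0.77) for Agpat3 and 0.77 (SE 0.46, 0.75) for Lpin2. With the STM library left out at 12 h put back they were 0.44 (SE 0.15, 0.057) and 0.74 (SE 0.26, 0.072), and Agpat3 was also lost with the replicate block (0.053), without a filter (0.15) and with the length trend removed (0.055), in ranges of 0.011 to 0.77 and 0.015 to 0.75. Agpat3 was lost on leaving out any 1 of 14 of the 17 libraries (log2 fold change 0.35 to 0.48, adjusted p from 0.05 to 0.18), the others being 0 h replicate 2, 18 h replicate 2 and 22 h replicate 1. Lpin2 was lost without 0 h replicate 1 (0.65, 0.13), 0 h replicate 3 (0.57, 0.18), 2 h replicate 3 (0.74, 0.052), 18 h replicates 1 or 3 (0.77, 0.056 and 0.75, 0.063) or 22 h replicate 3 (0.67, 0.069). Pancreas acinar markers (5 genes, Cela1 highest) summed to 253, 135.3 and 606 normalized CPM in the 0 h libraries and to 20.1, 26.4, 19.98, 74.3, 41.6 and 23.02 in the late ones, keratinocyte markers (3 genes, Krt10 highest) to 1089, 3535 and 1058 against 4159, 3653, 4027, 123.2, 3159 and 5112, and skeletal muscle markers to 1667, 1314 and 260 against 1889, 3477, 1823, 2207, 2502 and 3502. The late library low in keratinocyte markers, 22 h replicate 1, was also the one with Agpat3 and Lpin2 in the fed range. Mitochondrial shares were 6.45%, 9.57% and 2.83% at 0 h and 11.0% to 24.4% late, highest in that library. The slope of level on gene length was -0.233 in 0 h replicate 3, against -0.0703 to 0.101 in the other STM libraries. The part of these cells and mitochondrial shares in the result was not tested. The slopes were addressed only by the fit with the length trend removed. The route list had 5 of 21 genes lower late in STM, against 15.3% of all genes past the test, among them Gpd1 (-1.37, SE 0.34, edgeR adjusted p = 0.017; 108.9 ± 62.6 to 43.1 ± 22.96 normalized CPM), Acsl3 (-0.96, 0.03), Gpd1l (-0.86, 0.038) and Acsl5 (-0.78, 0.0079; 189.2 ± 20.6 to 110 ± 18.6), with Gpd1 alone past the joint test (0.041, 4 genes in DESeq2, none with the replicate block) and a median of -0.17. Of the regulators, Srebf1 was lower (-0.43, 0.036) and the other 7 did not pass, while with the replicate block Pparg passed and Srebf1 did not. With lane as a covariate no gene of either list passed in STM.

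In the white fats no gene passed, while several varied widely. In pgWAT, Dgat2 was at 2421, 3061 and 3616 normalized CPM at 0 h, 2720, 1726 and 908 at 18 h and 1131, 155.3 and 1436 at 22 h. Agpat2 was at 709, 897 and 1544 at 0 h, 877, 566 and 352 at 18 h and 555, 64.2 and 524 at 22 h. For both, 5 of 6 late libraries were below all fed ones, with the lowest value in 22 h replicate 2, the library with 19522 normalized CPM of epididymis and 5534 of adipocyte markers. Gpam was at 170, 140 and 498 at 0 h, 91.4, 209 and 36.8 at 18 h and 115.03, 30.7 and 63 at 22 h, and Lpin1 at 390, 451 and 661, 278, 470 and 190, and 199, 46.5 and 372. Late log2 fold changes were -1.25 (SE 0.47, edgeR adjusted p = 0.16) for Dgat2, -1.14 (SE 0.49, 0.2) for Agpat2, -1.61 (SE 0.61, 0.16) for Gpam and -0.98 (SE 0.44, 0.22) for Lpin1. In edgeR none of the 9 passed the late test (0.00609% of all genes; 4 at an unadjusted p under 0.05, none in DESeq2) or the joint test (0% of all genes; 0 and 0). With the log2 adipocyte marker sum as a covariate, a fit chosen after seeing the data, Dgat2 (-1.60, 0.018), Agpat2 (-1.50, 0.021) and Mogat1 (-0.80, 0.018) passed, and 755 genes in all. Lane was not in that fit, and with lane alone as a covariate no member passed. Without 18 h replicate 3 and 22 h replicate 2, both rich in epididymis markers, Dgat2 was at -0.84 (0.067) and Agpat2 at -0.75 (0.15), and no member passed.

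In psWAT several genes were high in the libraries rich in adipocyte markers. Dgat2 was at 2304, 1354 and 141.5 normalized CPM at 0 h, 78.9, 53.9 and 61.6 at 2 h, 1763, 650 and 1952 at 8 h, 168.7, 66.7 and 232.8 at 12 h, 289, 412 and 606 at 18 h and 16.5 and 795 at 22 h. In the same order the adipocyte markers summed to 33895, 26047 and 1972 at 0 h, 3038, 910 and 1383 at 2 h, 42825, 14024 and 27563 at 8 h, 4365, 1719 and 6059 at 12 h, 4896, 11509 and 18713 at 18 h and 651 and 21198 at 22 h. The 8 libraries at or above 11509 in these markers held the 8 highest Dgat2 values, at every time but 2 h and 12 h. Those 8 libraries also held the 8 highest values of Agpat2 (from 203, against at most 156.3 in the other 9), Lpin1 (100.3 and 84.2), Mogat1 (8.32 and 6.19) and Dgat1 (145.49 and 145.31). They did not for Gpam, Agpat3 and Lpin3, whose values overlapped, or for Lpin2, at 16.6 to 50.005 in the 8 and 31.9 to 57.95 in the other 9. Agpat2 was at 1694, 1055 and 155.8 at 0 h, 156.3, 203 and 299 at 18 h and 25.1 and 453 at 22 h, and Gpam at 139.2, 27.6 and 23.2 at 0 h, 37.05, 51.4 and 32.4 at 18 h and 2.53 and 16.9 at 22 h, so their groups overlapped. Late log2 fold changes were -2.08 (SE 0.76, edgeR adjusted p = 0.94) for Agpat2, -1.59 (SE 0.90, 0.94) for Dgat2 and -1.69 (SE 0.67, 0.94) for Gpam. Leaving out single libraries moved them from -3.71 to -1.40, from -3.90 to -0.83 and from -2.64 to -0.37, each time lowest without 22 h replicate 3 and highest without 0 h replicate 1. In edgeR none of the 9 passed the late test (0% of all genes; 2 at an unadjusted p under 0.05, none in DESeq2) or the joint test (0% of all genes; 5 at an unadjusted p under 0.05, 4 in DESeq2). With the log2 adipocyte marker sum as a covariate the late values were -1.37 (0.52) for Agpat2, -0.83 (0.55) for Dgat2 and -1.26 (0.59) for Gpam, in a fit chosen after seeing the data. On the route list none of 20 genes passed in pgWAT (at an unadjusted p under 0.05, 4 joint and 3 late; in DESeq2, 2 and 1) or psWAT (6 and 2; 5 and 0), nor did any regulator (3 and 3 in pgWAT, with 3 and 3 in DESeq2; 5 and 1 in psWAT, with 5 and 0).

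Lpin2 differed among the times in OB, with 130.7, 128 and 126.1 normalized CPM at 0 h, 118.5, 126.05 and 125.7 at 2 h, 147.3, 141.4 and 154.7 at 8 h, 137.6, 144.6 and 141.3 at 12 h, 105.2, 120.6 and 113.9 at 18 h and 114.2, 133.2 and 132.2 at 22 h. Its 8 h and 12 h values were above and its 18 h values below all fed ones. Dgat2 in OB was at 49.8, 56.5 and 53.1 at 0 h, 61.1, 54.8 and 57.03 at 2 h, 46.6, 53.9 and 48.6 at 8 h, 54.3, 44.1 and 51.3 at 12 h, 70.0, 58.6 and 66.9 at 18 h and 64.8, 53.98 and 58.8 at 22 h, with the 18 h values above all fed ones. These 2 of 8 genes passed the joint test (edgeR adjusted p = 0.0098 and 0.026) against 15.4% of all genes, and none passed the late test (1.95% of all genes; 1 at an unadjusted p under 0.05, none in DESeq2). Lpin2 was lost with the length trend removed (0.42, range 2.1e-05 to 0.42). Dgat2 was lost with that (0.1) and with lane as a covariate (0.059, range 0.0035 to 0.1), and without 8 h replicates 1 or 3 (0.063 and 0.065) or 18 h replicates 1 or 3 (0.1 and 0.07).

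In BRN, Lpin2 was at 87.9, 70.8 and 103.2 normalized CPM at 0 h, 62.2 and 66.7 at 18 h and 67.1, 60.5 and 57.7 at 22 h. All 5 late values were below the fed ones (-0.47, SE 0.16, edgeR adjusted p = 0.065; DESeq2 -0.47, 0.027). Gpam was at 33.99, 31.9 and 30.3 at 0 h and 11.04, 21.8, 7.23, 7.43 and 25.4 late, all below the fed values (-1.10, SE 0.63, 0.27, but 0.004 without a filter on low counts), and had no count in 12 h replicate 2, where 3 counts were worth 1.08 normalized CPM. On leaving out single libraries, Gpam passed the late test without that one (0.038), Lpin2 without it or without 18 h replicate 3 (lowest 0.031), and Agpat3 without the latter (0.031). BRN libraries ran from 4746 to 19879 normalized CPM in oligodendrocyte markers and from 2164 to 4019 in neuron markers. The part of these cells in the BRN results was not tested. The slope of level on gene length was 0.193, 0.144 and 0.157 in the BRN 0 h libraries and -0.164 to 0.0556 in the late ones. These slopes were addressed only by the fit with the length trend removed, where none of the 8 genes passed. None of 8 genes passed in edgeR in BRN (joint 0.00597% of all genes, 0 at an unadjusted p under 0.05, 0 in DESeq2; late 11.2%, 2 and 1), in CBL (joint 2.99%, 0 and 0; late 0.344%, 3 and 0) and none of 9 in BST (joint 0.107%, 0 and 0; late 0.0596%, 0 and 0). The largest late log2 fold changes of a gene above 10 normalized CPM were 0.29 for Dgat2 (SE 0.10, 0.16) in CBL and 0.18 for Lpin1 (SE 0.09, 0.52) in BST. On the route list, Cds2, which turns phosphatidate toward phospholipids, fell late in BRN (-0.62, SE 0.17, 0.027; 551 ± 57.1 to 355 ± 82.05), alone of 20 genes. Cds2 (0.043) and Gpd1 (0.024) passed the joint test in OB, of 19 genes, against 15.4% of all genes. Acsl3 (0.035) and Gpd1 (0.032) passed it in CBL, of 19 genes, against 2.99% of all genes. In edgeR no gene of this list passed the late test in OB (2 at an unadjusted p under 0.05, none in DESeq2), CBL (8 and 3) or BST (3 and 0), or the joint test in BRN (3 and 1) or BST (2 and 1). Nr3c1, the glucocorticoid receptor, fell late in BRN (-0.73, SE 0.22, 0.038) and was the only regulator to pass in a brain region in edgeR as run. In these regions the late counts at an unadjusted p under 0.05 were 4 for BRN and 1 each for OB, CBL and BST. Those of DESeq2 were 2 for BRN and 0 for the others. The joint test of Nr3c1 passed in OB in DESeq2 and with the replicate block, and in BRN in DESeq2. With lane as a covariate, and with the length trend removed, Cds2 and Nr3c1 did not pass in BRN. No gene passed the BRN late test without 0 h replicate 1, or with the BRN libraries left out put back. With lane no gene of the lists passed in OB, and with the length trend removed Cds2 did not pass there. In that setting Agpat5 was higher in the BRN late test and Acsl3 in the CBL one. Agpat5 then also passed the joint test in OB.

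Likeness of pattern was measured as Pearson's r over the 54 means of organ and time of log2 (normalized CPM + 1), among 21600 genes, as a description in which organs set most of the spread. The genes most like Gpam were Gm5182 (0.936), Gm15801 (0.926) and Gm8783 (0.917), annotated as processed pseudogenes. Most like Lpin1 were Oxsm (0.935), Tspan12 (0.934) and L3hypdh (0.925), and most like Dgat2 were Ech1 (0.961), 2010003K11Rik (0.959) and Cebpa (0.955). Among the 9 genes themselves, Dgat2 was at 0.943 with Agpat2, 0.911 with Dgat1 and 0.759 with Lpin1, but at -0.524 with Lpin2, and Gpam at 0.570 with Agpat3 and -0.513 with Lpin2.

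Promoters from RefSeq (GRCm38.p6, 250 bases before to 50 after a start) were found for 7 of the 9 genes, 11 promoters in all, and Dgat1 and Dgat2 had no entry. Of these, 1 each is shown for Gpam, Agpat2 and Lpin1. Not shown are a second promoter of Gpam, with a GC box match at -16 and a hexamer match at -196, the 3 of Lpin2, with matches to the E-box, GC box or CCAAT words, and those of Lpin3, Agpat3 and Mogat1. The words searched on both strands were TCACNCCAC (a sterol regulatory element), CACGTG (an E-box), GGGCGG (a GC box), CCAAT and AGGTCA (the nuclear receptor hexamer), and matches are in capitals, including those to the reverse complement. Over all 32851 promoters these words occur in 1.24%, 7.15%, 35.7%, 37.4% and 16.3%, and over the 11 in 0, 2, 5, 3 and 2. Gpam (chr19:55127189-55127488, minus strand) has CCAAT in reverse complement at -74 bases from the start, Agpat2 (chr2:26604368-26604667, minus strand) GGGCGG at -42 and -37, which share a base, and at 24, and Lpin1 (chr12:16610917-16611216, minus strand) AGGTCA at -74.
Gpam: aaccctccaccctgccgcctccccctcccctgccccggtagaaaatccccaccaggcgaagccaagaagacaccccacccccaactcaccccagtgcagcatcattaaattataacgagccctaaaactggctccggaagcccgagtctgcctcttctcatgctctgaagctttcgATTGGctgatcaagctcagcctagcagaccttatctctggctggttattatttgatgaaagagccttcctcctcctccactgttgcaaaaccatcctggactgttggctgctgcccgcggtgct
Agpat2: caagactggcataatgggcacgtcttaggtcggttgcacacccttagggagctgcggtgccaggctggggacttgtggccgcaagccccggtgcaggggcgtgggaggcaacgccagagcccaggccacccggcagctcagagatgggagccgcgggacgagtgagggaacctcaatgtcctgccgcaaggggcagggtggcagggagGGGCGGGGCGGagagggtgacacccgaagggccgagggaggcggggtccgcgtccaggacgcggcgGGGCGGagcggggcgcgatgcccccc
Lpin1: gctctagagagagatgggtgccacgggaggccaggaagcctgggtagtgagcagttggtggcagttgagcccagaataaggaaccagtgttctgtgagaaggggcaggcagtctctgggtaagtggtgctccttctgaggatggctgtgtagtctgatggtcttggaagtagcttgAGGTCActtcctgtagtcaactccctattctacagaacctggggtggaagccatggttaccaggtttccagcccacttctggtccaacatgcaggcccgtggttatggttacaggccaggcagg
A match describes the letters only, and the share of all promoters with CCAAT or GGGCGG is high.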

How the data were processed

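The libraries were stranded mRNA-seq of 9 organs. Per the labels and the study's methods, the authors aligned reads with TopHat2 2.1.1 to GRCm38.p5 and counted them per gene with HTSeq 0.9.1, and the deposited values are raw counts with no normalization. Versions of these tools come from the submitters' processing notes, and the authors used Gencode release 16. Gene lengths, positions and overlaps used here come from Gencode release 21, so exon lengths can differ from those counted. The 5 libraries that the study removed on its quality criteria were left out.

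Counts were fitted per organ in R 4.3.3 with edgeR 4.0.16 (TMM factors, robust quasi-likelihood), keeping genes at the CPM worth 10 counts in the median library in at least 3 libraries. Tests were the F test of the 6 times, the mean of 18 h and 22 h minus 0 h, and the difference of that between 2 organs, with Benjamini-Hochberg adjustment over all genes. In iBAT, 22 h alone minus 0 h was tested as well. Organs of the same mice entered the fits of 2 organs as separate samples. All 9 genes are named, with at most 4 passing genes per organ from the lists of 22 route genes and 8 regulators. Marker genes were summed as normalized CPM. The members and lists were chosen with earlier results of these data known. Alternatives were DESeq2 1.42.0, RLE factors, no filter, the replicate block, lane, all libraries, other fed groups, an added fold threshold and each library left out. The length trend, the iBAT fits without its 22 h pair (with and without lane), the pgWAT fit without 2 libraries, the adipocyte covariate and lane in the fits of 2 organs (not in iBAT) were chosen after seeing the data. Tables were made with Python 3.11.15, pandas 2.3.3, numpy 2.4.6 and matplotlib 3.10.9, and the fits were tested on simulated data.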

Additional observations from a re-analysis of the deposited data

Results flagged for a closer look

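The late change differed between LIV and iBAT, by the test of the difference in a fit of both organs, for Dgat2 (-1.14 on the log2 scale), Lpin1 (2.92) and Lpin2 (1.70). For Dgat2 the difference passed in all 9 alternatives. Each organ's own late test passed too, lower in LIV (-0.39) and higher in iBAT (0.77). The LIV call was lost with lane (-0.54, edgeR adjusted p = 0.22) and without a filter (-0.39, 0.051). It was also lost without fed replicate 1 (-0.32, 0.13) or 2 (-0.33, 0.12). The iBAT call was lost without both 22 h libraries (0.62, 0.15), and with lane as well (0.70, 0.41). For Lpin1 and Lpin2 the fall in iBAT passed and the higher values in LIV did not. The iBAT calls were lost without both 22 h libraries (Lpin1 -0.65, 0.38; Lpin2 -0.42, 0.62), and that of Lpin2 also with the length trend removed (-0.28, 0.33) and without 0 h replicates 2 or 3 (0.11 and 0.055) or 22 h replicate 2 (0.062). Neither difference passed without the iBAT 22 h libraries (Lpin1 at 2.37, edgeR adjusted p = 0.092, and Lpin2 at 1.23, 0.11). With the lane of the LIV libraries as a covariate neither passed (Lpin1 at 2.02, 0.3, and Lpin2 at 1.43, 0.18). Between LIV and pgWAT the late change of Lpin1 differed by 2.73, with an adjusted p that rounds to the threshold and is 0.76 with lane. The comparisons of LIV share their 3 fed and 6 late libraries.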

How the results depend on the processing

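RLE factors changed no count of members passing by more than 1.5 times. No member called in the late test or in a difference between organs changed direction under any alternative. Gpam in iBAT, called in the joint test but not the late one, was lower late as run and higher without both 22 h libraries. For the joint test the members passing were 1 in OB with lane and 0 with the length trend removed (2 as reported), 1 in BRN and 1 in BST without a filter (0), 0 in LIV with lane (4), 2 in iBAT with the length trend removed 0 without both 22 h libraries and 0 without them and with lane (5), and 4 in psWAT in DESeq2 (0). For the late test they were 1 in BRN in DESeq2 and 1 without a filter (0), and in STM 0 with lane, 0 with the STM library left out at 12 h put back and 0 with a log2 fold change over 1 required as well (2). In LIV they were 0 with lane and 1 with the fold threshold (4), in iBAT 5 in DESeq2, 0 without both 22 h libraries, 0 without them and with lane, 6 with 0 h and 2 h as fed and 1 with the fold threshold (3), and in pgWAT 3 with adipocyte markers as a covariate (0). Between organs they were 1 in DESeq2 for LIV and STM (0), 1 for LIV and iBAT without both 22 h libraries and 1 with the lane of LIV (3), 0 for LIV and pgWAT without a filter, with the lanes of both, with 0 h and 2 h as fed and with the length trend removed (1), and 1 for iBAT and pgWAT in DESeq2 (0). The cause was not tested.

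With the replicate number as a block (replicate block), 2 members passed the joint test in LIV in place of 4, 1 the late test in STM in place of 2 and 0 the difference of LIV and pgWAT in place of 1, and in LIV 3 passed the late test in place of 4. The genes lost were Gpam and Dgat1 in the LIV joint test, Dgat1 in the LIV late test, Agpat3 in STM and Lpin1 between LIV and pgWAT. No other count of members moved by more than 1.5 times. The mean correlation of libraries' deviations was -0.0325 for the same replicate number and 0.0156 for different ones in LIV, 0.159 and -0.0805 in iBAT and -0.0779 and 0.0395 in psWAT. Whether the numbers mark a shared source was not tested.

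Leaving out each library in turn, 1 to 2 members passed the joint test in OB, 0 to 1 in STM, 2 to 4 in LIV, 1 to 7 in iBAT and 0 in BRN, CBL, BST, pgWAT and psWAT. For the late test these were 0 to 2 in BRN, 0 to 5 in STM, 2 to 4 in LIV, 2 to 6 in iBAT and 0 in OB, CBL, BST, pgWAT and psWAT. The difference of LIV and iBAT kept 3 and that of LIV and pgWAT 0 to 1. Counts of all genes also moved by more than 1.5 times. In the late test they ran from 647 without iBAT 0 h replicate 2 to 4630 without 22 h replicate 3, from 489 without STM 0 h replicate 3 to 3407 without 0 h replicate 2, and from 585 without LIV 0 h replicate 2 to 1609 without 18 h replicate 1. They ran from 0 without BRN 0 h replicate 1 to 5597 without 18 h replicate 3, from 3 without OB 0 h replicate 1 to 1251 without 0 h replicate 3, 5 to 248 in CBL, 0 to 70 in BST, 1 to 247 in pgWAT and 0 in psWAT. In the joint test they ran from 876 without iBAT 22 h replicate 2 to 5346 without 12 h replicate 2, 1274 to 2886 in LIV, 1035 to 3676 in OB, 0 to 2890 in BRN, 22 to 1681 in CBL, 1 to 207 in BST, 0.701% of genes (without 18 h replicate 3) to 1742 in STM, 0 to 11 in pgWAT and 0 to 6 in psWAT. For LIV and iBAT they ran from 624 without iBAT 0 h replicate 2 to 3558 without 22 h replicate 3, and for LIV and pgWAT from 14 to 909.

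Over the other settings the genes passing the joint test ran from 1127 to 4388 in OB, 0 to 2015 in BRN, 365 to 2397 in CBL, 22 to 749 in BST, 0 to 2805 in STM, 294 to 4055 in LIV, 27 to 5883 in iBAT, 0 to 550 in pgWAT and 0 to 2053 in psWAT. For the late test they ran from 0 to 1580, 0 to 3128, 11 to 694, 1 (0.00596% of genes) to 0.510% of genes, 0 to 3696, 21 to 2098, 3 to 5230, 0 to 1191 and 0 to 11 in the same order. Between organs they ran from 0 to 456 for LIV and STM, 95 to 3818 for LIV and iBAT, 0 to 1143 for LIV and pgWAT, 0 to 32 for LIV and psWAT, 0 to 160 for iBAT and pgWAT, 0 to 647 for iBAT and psWAT and 0 to 35 for pgWAT and psWAT.

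Scaling all organs together moved mean levels by more than their SD for Gpam in CBL (41.3) and LIV (34.1), Agpat2 in LIV (368) and iBAT (1690), Agpat3 in OB (265), BRN (204), CBL (251), BST (318), STM (96.8), LIV (265) and iBAT (564), and Lpin1 in OB (26.99), CBL (31.9) and iBAT (529). It did so for Lpin2 in OB (110), CBL (60.3), BST (74.3), LIV (601) and iBAT (16.1), Lpin3 in LIV (8.98) and iBAT (10.3), Dgat1 in OB (19.8), CBL (20.3), LIV (73.2) and iBAT (416), and Dgat2 in OB (46.9), BRN (72.4), CBL (18.1), LIV (756) and iBAT (4387). Lane was used as a covariate in iBAT only without the 22 h libraries, each on a lane with no other iBAT library in use. It was not used in CBL and BST, which have 1 lane. Leaving out single libraries was run for 2 differences between organs, LIV with iBAT and LIV with pgWAT, and there for the 0 h, 18 h and 22 h libraries.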
